A study of Mus musculus with 3 samples.

Results

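The cell cycle is driven by waves of gene expression. Genes for replication licensing, such as the Mcm helicase subunits, and for nucleotide synthesis rise as a cell leaves G1 and enters S phase, under E2F transcription factors. Genes for mitotic cyclins, kinases and spindle proteins rise later, in G2 and M, many through a promoter element called the cell cycle genes homology region (CHR) near a CCAAT box. Resting cells keep both waves low through RB family proteins and the DREAM complex. In a brain with metastases, dividing cells can be tumour cells, lymphocytes, monocyte-derived cells, microglia or cells of the vessel wall.

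The set described here holds 40 cell cycle genes, found by symbol in the RNA tables, where they are 40 of 19208 genes for metastasis-bearing and 40 of 17453 genes for naive mouse brains. By role, 12 belong to G1/S licensing and replication, 3 to nucleotide supply, 7 to mitotic cyclins and kinases, 11 to the spindle, kinetochore and checkpoint and 2 to the anaphase-promoting complex axis. Mki67, whose protein coats mitotic chromosomes and marks proliferating cells, and Top2a, the DNA topoisomerase of dividing cells, form a pair of markers. The last 3 genes, Stmn1, Tubb5 and H2afz, are expressed broadly and are higher in dividing cells.

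The cells came from female mice of 2 to 3 months on the C57Bl/6 background. Mice were Cx3cr1+/- (heterozygous, Het) or Cx3cr1-/- (homozygous, Hom), so every animal lacked at least one functional allele of this fractalkine receptor in all its cells, and no wild-type animal was included. Within each genotype, mice were either naive or bore metastases about 2 weeks after E0771 cells, a mouse mammary cancer line, had been injected into the carotid artery. Immune cells were enriched on a Percoll gradient from 1 brain (given in the labels as a hemisphere), stained with a pool of 35 antibodies, tagged with a hashing antibody, and the 8 brains were loaded together as 1 library. There were 2 brains per genotype and state. They are named Het 1, Het 2, Hom 1 and Hom 2, and a number pairs nothing between groups. The labels name no batch, and p-values measure the spread between these few brains. The enrichment was for immune cells, so shares of tumour and vascular cells are those that passed it.

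A barcode found in each of the tables (1138 such barcodes) was dropped from both, so that 8443 cells of metastasis-bearing and 2736 of naive brains remained of the 13455 deposited. Median raw UMIs (unique molecular identifiers, counted RNA molecules) per cell were 7824 to 71585 over the metastasis-bearing brains, highest in Hom 1, and 6181 to 7096 over the naive brains. The authors' clusters were named from marker genes, and they were made from all genes, the 40 included, so levels between classes are given as a description with no test. A Krt8-high class expressed the epithelial keratin Krt8 at 559 ± 48.8 CPM (corrected UMIs of a gene per 1e6 of all genes; SD, n = 4 brains) against 37.9 in T-like and 11.4 in microglia-like cells, but its epithelial marker Epcam was at 0.894 CPM. The 7 epithelial markers found, Krt8 and Epcam among them, summed over brains to 1102 to 1263 CPM in its Mki67-positive cells. In its Mki67-negative cells they summed to 1272 to 1406 CPM. In T-like cells the same sums were 30.2 to 62.2 and 89.2 to 131 CPM. The Krt8-high class is called by its gene and not as tumour cells. Naive brains, which received no tumour cells per the labels, also held 136 Krt8-high cells of 2736. With metastases, Cx3cr1 in microglia-like cells was 1363 and 1464 CPM in the Het brains against 114 and 31.6 CPM in the Hom brains, lower in both.

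The deposited values are UMIs after a depth correction, and the correction put some genes above 0 in shallow cells. In the 252 cells of metastasis-bearing brains outside the Krt8-high class with under 1500 raw UMIs, the members Birc5, Ube2c, Top2a, Stmn1, Tubb5 and H2afz were above 0 in 100% of cells. Krt8, which is not a member, was above 0 in 100% of them too. The remaining members, Mki67 among them, showed no such floor. Mki67 was above 0 in 1.98% of cells under 1500 raw UMIs and in 29.6% of cells of 20000 or more. Median depths are therefore given beside the shares of Mki67-positive cells below.

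**Figure D1:**
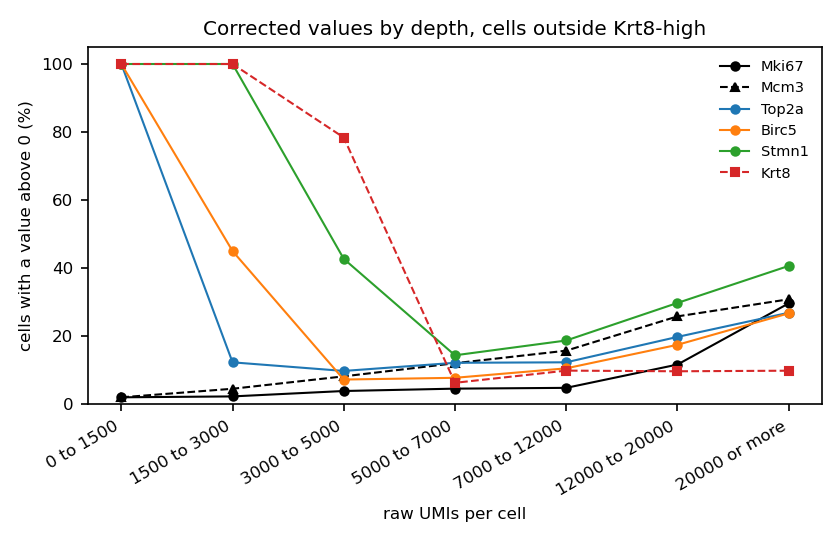
Percent of cells with a corrected value above 0, by raw UMIs per cell, for Mki67, Mcm3, Top2a, Birc5, Stmn1 and Krt8 in cells of metastasis-bearing brains outside the Krt8-high class (y axis, percent; x axis, bins of raw UMIs). Mki67 and Mcm3 start at 1.98% in the shallowest bin and rise to 29.6% and 30.8% in the deepest, whereas Top2a, Birc5, Stmn1 and Krt8 start at 100%.

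The promoters of the set hold letters known from both waves. The 120 bases upstream of the start are printed for 6 members, from RefSeq on GRCm38.p6, each 5′ to 3′ on the strand of its gene. They were chosen because Mki67 defines the positive cells here, Top2a, Ube2c, Cdk1 and Cdc20 are mitotic members with CHR or CCAAT letters close to the start, and Mcm6 is a licensing gene with E2F letters. Capitals mark a CHR, searched as TTTGAA and, in a variant form, as TTCGAA. They also mark the CCAAT letters and E2F strings, the latter searched as TTTCCCGC, TTTGGCGC, TTTCGCGC and TTTGCCGC. Each was searched on both strands.
Mki67, chr7:135716380-135716499, minus strand: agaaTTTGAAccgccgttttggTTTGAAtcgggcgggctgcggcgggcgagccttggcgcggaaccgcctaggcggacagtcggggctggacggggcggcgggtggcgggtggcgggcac
Top2a, chr11:99024190-99024309, minus strand: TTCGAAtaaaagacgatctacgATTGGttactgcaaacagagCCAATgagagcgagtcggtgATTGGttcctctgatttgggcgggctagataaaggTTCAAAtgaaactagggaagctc
Cdk1, chr10:69352913-69353032, minus strand: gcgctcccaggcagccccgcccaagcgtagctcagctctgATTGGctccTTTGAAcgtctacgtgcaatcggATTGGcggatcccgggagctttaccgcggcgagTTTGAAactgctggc
Ube2c, chr2:164769809-164769928, plus strand: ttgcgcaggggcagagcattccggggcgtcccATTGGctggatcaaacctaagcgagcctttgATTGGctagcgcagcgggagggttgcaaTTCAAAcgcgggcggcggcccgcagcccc
Cdc20, chr4:118437344-118437463, minus strand: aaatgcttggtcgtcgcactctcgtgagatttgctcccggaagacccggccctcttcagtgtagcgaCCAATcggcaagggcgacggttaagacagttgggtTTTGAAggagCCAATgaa
Mcm6, chr1:128359706-128359825, minus strand: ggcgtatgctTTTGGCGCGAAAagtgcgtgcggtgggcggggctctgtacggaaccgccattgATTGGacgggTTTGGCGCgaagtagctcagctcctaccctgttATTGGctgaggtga

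In Mcm6 the first capital run holds 2 overlapping E2F strings. Of the 40 members, 33 matched the RefSeq promoter table. Mcm4, Gins2, Ccna2, Aurkb, Tpx2, Kif20a and Stmn1 had no entry there. In the 250 bases upstream of the start, CCAAT letters stood in 16 of the 18 matched mitotic members and markers (88.9%) and in 10 of the 13 matched G1/S and nucleotide members (76.9%), against 37.5% of all 27025 promoters. A CHR stood in 9 of 18 mitotic members (50%), each of them with CCAAT letters too, and in 2 of 13 G1/S and nucleotide members (15.4%), against 19.6% of all promoters. E2F strings ran the other way, in 1 of 18 mitotic members (5.56%) and 5 of 13 G1/S and nucleotide members (38.5%), against 2.16% of all promoters. These matches describe letters in a window and are not binding sites.

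Among the classes with a comparison between genotypes, levels of the 40 genes were highest in the Krt8-high class. Summed over all members they came to 7692, 9142, 7669 and 7110 CPM in Het 1, Het 2, Hom 1 and Hom 2 (mean 7903 ± 869 SD, n = 4). The next class, vascular-like, was at 2536 ± 762 CPM, followed by NK-like at 2428 ± 469, T-like at 2144 ± 294, microglia-like at 1695 ± 466 and monocyte/macrophage-like at 1552 ± 241 CPM. Every Krt8-high brain lay above every brain of the other classes, and neighbours from vascular-like downward did not differ beyond their spread. In naive brains the Krt8-high class summed to 8208 ± 517 CPM, T/NK-like cells to 2220 CPM and microglia-like cells to 911 ± 35.3 CPM.

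By role, the 12 licensing and replication genes summed to 952 ± 86.5 CPM in Krt8-high cells and to 136 to 308 CPM in the monocyte/macrophage-like, T-like, microglia-like, NK-like and vascular-like classes, where T-like cells were highest. The 11 spindle, kinetochore and checkpoint genes summed to 1755 ± 334 CPM in Krt8-high cells and to 77.1 to 301 CPM in those 5 classes, where vascular-like cells were highest. The 3 broadly expressed genes were closest between classes, at 2819 ± 139 CPM in Krt8-high cells against 1039 to 1889 CPM. Among the 10 genes with the largest fold that mark the Krt8-high cluster of metastasis-bearing brains, 7 were members, namely Tpx2, Cenpf, Ube2c, Hmmr, Birc5, Cdc20 and Cenpe. No member stood in the top 10 of any other cluster, including the naive Krt8-high cluster, which was led by Rhox5, Esx1 and Krt8.

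**Figure D2:**
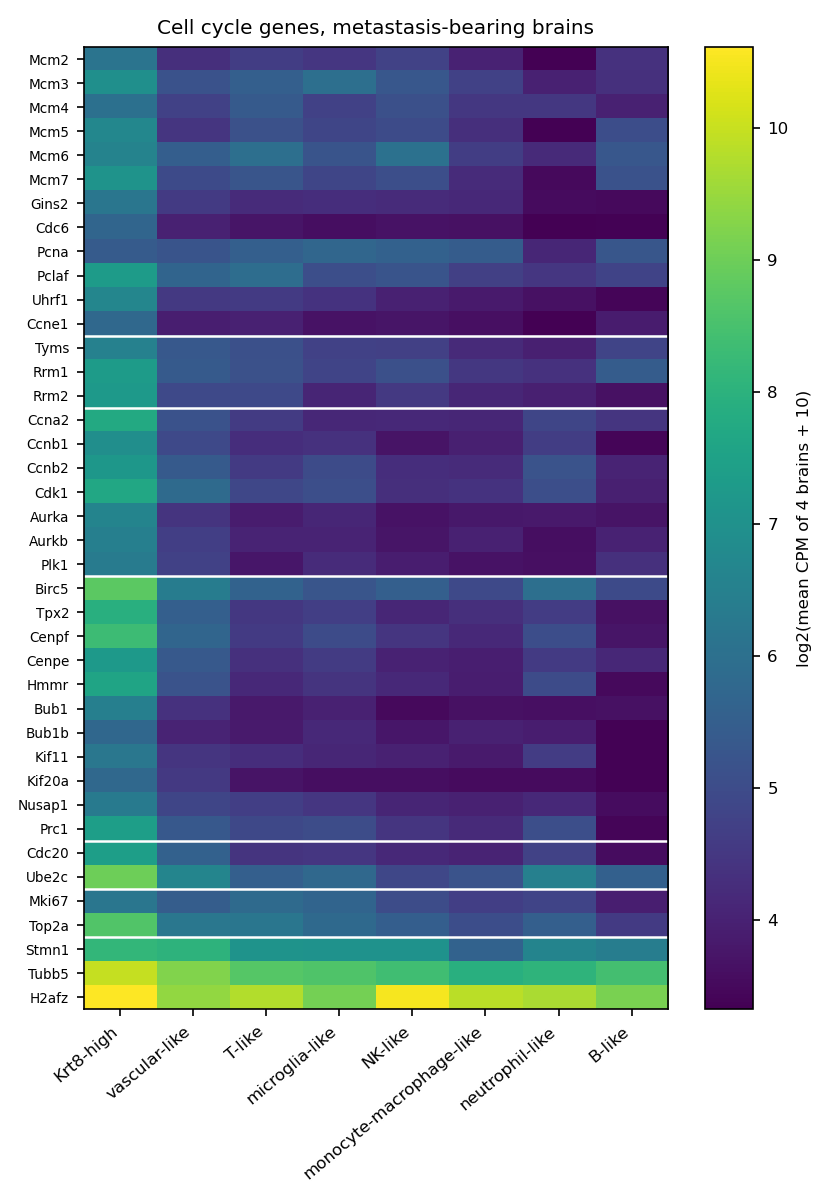
Heat map of the mean level of each of the 40 members, as log2(CPM + 10) of the mean over 4 brains, in 8 classes of metastasis-bearing brains (rows are genes ordered by role with white lines between roles, columns are classes). The Krt8-high column is the brightest across the mitotic roles, where the 11 spindle genes sum to 1755 CPM against 301 CPM in vascular-like cells, and the 3 broadly expressed genes are bright in all classes.

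The percent of cells with an Mki67 value above 0 gives the share of cells in which this marker of cycling was detected. In metastasis-bearing brains it was 39.9% of 2732 Krt8-high cells (exact 95% binomial interval 38.1 to 41.8%), whose median depth was 103002 raw UMIs. By brain it was 94 of 231, 111 of 217, 612 of 1629 and 274 of 655 cells in Het 1, Het 2, Hom 1 and Hom 2. Every brain was between 37.6% and 51.2%. Intervals cover counting error only.

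Among lymphocytes, 10.3% of 1201 T-like cells (8.66 to 12.2%) and 3.88% of 747 NK-like cells (2.62 to 5.53%) were positive, at median depths of 5409 and 4136 raw UMIs. The T-like shares of the 4 brains were 7.84, 9.35, 11.5 and 14.5% and the NK-like shares 8.11, 3.49, 4.71 and 2.54%, so that Het 1 alone lay within the T-like range. Monocyte/macrophage-like cells were positive in 6.83% of 1786 cells (5.70 to 8.10%; median 12033 raw UMIs) and ranged from 5.28 to 7.58% over brains. Vascular-like cells, at 9.91% of 454 (7.32 to 13%; median 9011), had 6.60 and 2.91% in the Het and 19.6 and 17.5% in the Hom brains.

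Microglia-like cells, the resident macrophages of the brain, were positive in 6.12% of 654 cells (4.41 to 8.24%) in metastasis-bearing brains and in 1.46% of 1234 cells in naive brains. Their median depths were 8470 and 7197 raw UMIs. By brain the numbers were 12 of 390, 11 of 144, 13 of 85 and 4 of 35 with metastases and 6 of 495, 2 of 227, 4 of 147 and 6 of 365 without. The lowest metastasis-bearing brain, at 3.08%, was above the highest naive brain, at 2.72%, but among cells of 5000 to 15000 raw UMIs the brains overlapped, at 1.51, 5.79, 4.17 and 3.45% with metastases and 1.39, 0.957, 3.36 and 1.26% without. Pooled over brains, the shares in that range were 2.83 and 1.48%. The 2 tables were corrected separately, so no test was made across them. Free RNA can give a value in a cell that does not express a gene, so shares of classes not described further are set beside these. With metastases, Mki67 was above 0 in 2 of 37 choroid-plexus-like cells (5.41%; median 34954 raw UMIs), 4 of 94 neutrophil-like cells (4.26%; median 3282) and 3 of 91 B-like cells (3.30%; median 3341), and the NK-like share of 3.88% lay among these. In naive brains it was above 0 in 1 of 117 vascular-like cells (0.855%; median 5888) and in 0 of 22 choroid-plexus-like cells (median 46927), where a count of 0 allows a share of cells with a value of up to 13.6% by the limit of 3 counts and 15.4% by the exact interval. The naive microglia-like share was of the same low order. Of its 18 positive cells, 6 held at least 5 of the 33 other members that have no floor in shallow cells, against 19 of 1216 negative cells, and of the 29 positive NK-like cells 15 did, against 30 of 718 negative cells. The part of free RNA in these shares was not tested. Of the other naive classes, T/NK-like cells were positive in 8.47% of 248 (5.32 to 12.7%; median 5376 raw UMIs), the Krt8-high cluster in 33.8% of 136 (25.9 to 42.4%; median 124602) and a cluster high in the granulocyte gene S100a8 in 15.2% of 171 (10.2 to 21.5%; median 23923). Of the 26 positive cells of that S100a8-high cluster, 22 had the monocyte gene Ccr2 above 0, among 122 such cells (median 31361). The neutrophil genes Camp and Cxcr2 were above 0 in 10 and 42 of its cells, of which 1 and 3 were Mki67-positive.

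Thinning every cell to 2000 corrected UMIs kept Krt8-high cells highest, at 10.8 ± 2.67% (mean of 4 brains, SD). T-like cells came next at 5.66 ± 2.94%, then vascular-like at 3.59 ± 2.03%, microglia-like at 3.31 ± 2.01%, monocyte/macrophage-like at 1.52 ± 0.634% and NK-like at 1.24 ± 1.10%. These 5 classes overlapped between neighbours. Thinned naive microglia-like cells were at 0.697 ± 0.213%. Median corrected UMIs were already close between classes, at 12491 in Krt8-high, 11616 in T-like and 11125 in NK-like cells with metastases. Thinning therefore cannot take out the difference in raw depth between them.

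**Figure D3:**
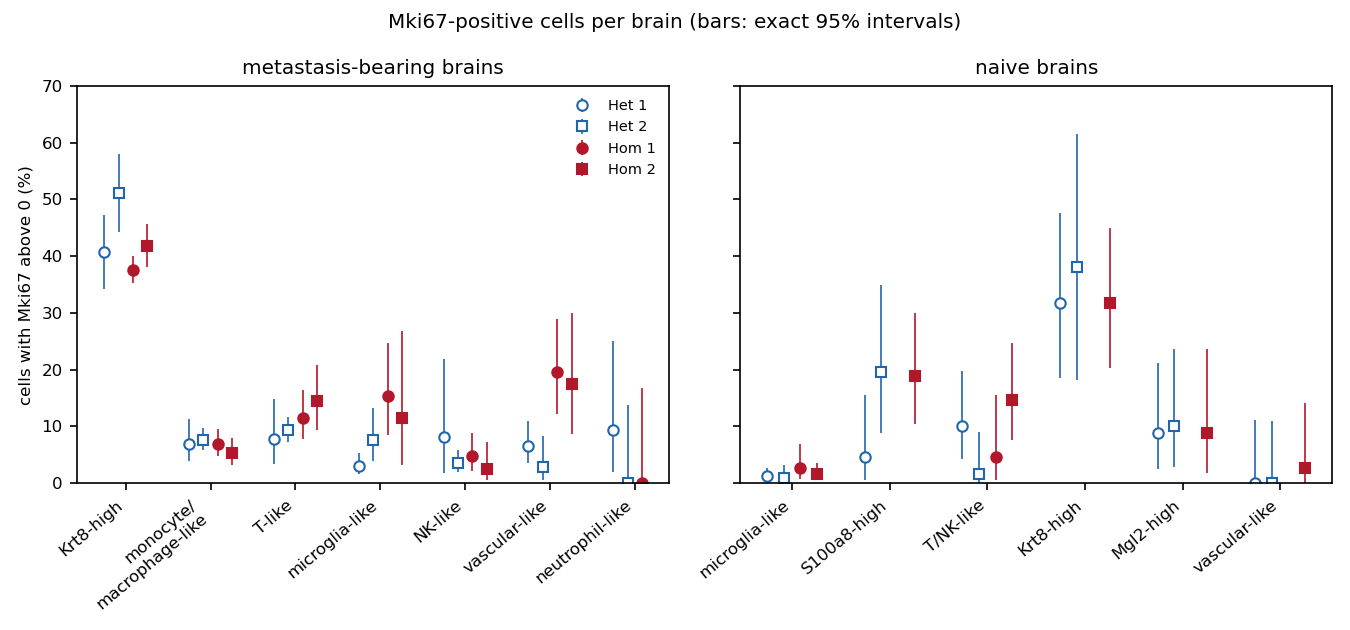
Percent of cells with Mki67 above 0 in each brain (y axis, percent; x axis, class; left panel metastasis-bearing, right panel naive), for classes with at least 3 brains of 20 or more cells, with open blue symbols for Het, filled red symbols for Hom, circles and squares for brains 1 and 2, and bars for exact 95% binomial intervals. Krt8-high brains lie between 37.6 and 51.2% in the left panel, and vascular-like brains split into 6.60 and 2.91% (Het) against 19.6 and 17.5% (Hom).

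Within classes, positive cells were spread unevenly over subsets defined by a marker above 0. Of T-like cells with Foxp3, the regulator of regulatory T cells, 41 of 123 were Mki67-positive (33.3%, 25.1 to 42.4%; median 8648 raw UMIs), by brain 5 of 15, 20 of 52, 8 of 40 and 8 of 16. Cells with Cd8a were positive in 37 of 255 (14.5%; median 7380), cells with Trdc, of the gamma-delta receptor, in 39 of 450 (8.67%; median 4924), and cells with Lef1, a factor of naive T cells, in 26 of 306 (8.50%; median 6009). The Foxp3-positive share was above the Lef1-positive share in each of the 4 brains, where the latter was 2 of 30, 17 of 195, 3 of 56 and 4 of 25. Having a marker detected also selects deeper cells, and the part of depth in these shares was not tested.

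Among vascular-like cells, those with the fibroblast collagen gene Col1a1 were positive in 14 of 56 (25.0%; median 17725 raw UMIs), those with the endothelial tight junction gene Cldn5 in 27 of 305 (8.85%; median 8985) and those with the pericyte gene Rgs5 in 5 of 191 (2.62%; median 8874). Of the Cldn5-positive cells, 6 of 115 and 0 of 71 were Mki67-positive in the Het brains against 16 of 86 and 5 of 33 in the Hom brains. Among neutrophil-like cells, 4 of 18 with Camp, a granule gene of immature neutrophils, were positive (median 9577 raw UMIs), and 1 of 73 with Cxcr2, which mature neutrophils express (median 3210). In monocyte/macrophage-like cells, 33 of 283 with Mrc1 (11.7%; median 17756) and 85 of 1427 with the monocyte gene Ly6c2 (5.96%; median 12314) were positive.

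Mki67 alone misses cells in shallow libraries, so cells with at least 5 of the 33 members that have no floor, other than Mki67, were counted too. They made up 83.1% of Krt8-high, 12.8% of vascular-like, 10.9% of microglia-like, 10.2% of T-like, 7.39% of monocyte/macrophage-like and 6.02% of NK-like cells with metastases. In naive brains they were 85.3% of Krt8-high, 9.27% of T/NK-like and 2.03% of microglia-like cells. This count depends on depth as well. With metastases such cells had medians of 35297 raw UMIs in vascular-like, 18416 in microglia-like and 14207 in T-like cells, against 9011, 8470 and 5409 in the whole classes.

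The next question was which members rise with Mki67 within a class. Sums over Mki67-positive and Mki67-negative cells were compared in each brain, with the brain as a block, by limma on log2(CPM + 10) with Benjamini-Hochberg adjustment over all genes tested. Only the Krt8-high class held 20 or more positive cells in every brain. Monocyte/macrophage-like and T-like cells were added with a minimum of 5, chosen after the numbers of positive cells were seen. Positive cells were deeper than negative ones, with medians of 115466 against 96484 raw UMIs in Krt8-high, 19189 against 11828 in monocyte/macrophage-like and 9502 against 5282 in T-like cells. The part of raw depth in the differences was not tested, and thinning, which draws on corrected UMIs, cannot take it out. Mki67 itself defines the sides and is left out, which leaves 39 members.

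In Krt8-high cells all 39 members were tested. Of these, 29 were higher and 3 lower in positive cells, against 22.4% and 14% of all 8019 genes. All 11 spindle, kinetochore and checkpoint genes rose, with a median log2 difference of 1.99. Cenpe, a kinetochore motor, was at 259, 277, 282 and 248 CPM in positive cells of Het 1, Het 2, Hom 1 and Hom 2 and at 43.2, 56.2, 45.5 and 32.0 CPM in negative cells, a log2 difference of 2.37 (SE 0.07, adjusted p = 9.87e-08, limma). Cenpf, another kinetochore protein, was at 448, 668, 619 and 531 CPM against 121, 142, 101 and 81.8 CPM. For both genes the sides did not overlap. Kif11 (2.10), Prc1 (2.05), Nusap1 (2.00), Hmmr (1.99), Tpx2 (1.87), Bub1b (1.80), Bub1 (1.59), Kif20a (1.46) and Birc5 (1.23), motors, microtubule binders and checkpoint proteins of the spindle, made up the rest of the group.

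All 7 mitotic cyclins and kinases rose, with a median of 1.45. Plk1 and Aurka, kinases of the spindle poles, rose by 1.65 and 1.64 on the log2 scale, and the passenger complex kinase Aurkb by 1.45. Cyclin B1 (Ccnb1), the activator of Cdk1, was at 156, 218, 203 and 165 CPM in positive and 59.5, 76.5, 52.9 and 37.8 CPM in negative cells, and it rose by 1.57. Cyclin A2 (Ccna2, 1.32), the kinase Cdk1 (1.00) and cyclin B2 (Ccnb2, 0.69) rose less. Ube2c and Cdc20, an enzyme and an activator of the anaphase-promoting complex, rose by 1.77 and 1.51, and Top2a by 1.81. Mitotic members thus rose together in Krt8-high cells.

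The G1/S group behaved differently within the same cells. Of its 12 genes, 2 rose, namely Pclaf, a PCNA-binding factor, by 0.94, and Uhrf1, which maintains DNA methylation, by 0.44. Ccne1, the cyclin of S phase entry, was at 36.2, 34.8, 33.8 and 41.4 CPM in positive against 47.2, 68.2, 46.2 and 51.3 CPM in negative cells, lower in 4 of 4 brains (log2 difference -0.43, adjusted p = 0.00554, limma). The licensing factor Cdc6 (-0.38, adjusted p = 0.0377) and the helicase subunit Mcm6 (-0.20, adjusted p = 0.0315) were lower as well. After thinning to 2000 corrected UMIs no member was called lower, nor with any gene above 0 kept, and 1 was without the variance trend. The 7 others, 5 of them helicase subunits, had differences of -0.11 to 0.13 and did not pass. All 3 nucleotide genes rose, the ribonucleotide reductase subunits Rrm1 by 0.96 and Rrm2 by 0.37 and the thymidylate synthase gene Tyms by 0.45. Stmn1 (0.80), Tubb5, a tubulin (0.48), and H2afz, a histone variant (0.37), rose too.

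In T-like cells 38 members were tested and 33 rose in positive cells, against 4.29% of all 6895 genes called higher and 5.57% in either direction. Genes were tested where their mean over both sides was above 10 CPM. A member near 0 in negative cells passed only through the positive cells, such as Bub1b at means of 0.303 and 39.6 CPM. The number called is therefore given as a description. Pclaf was at 867, 356, 174 and 398 CPM in positive and 0, 6.99, 5.84 and 5.75 CPM in negative cells of Het 1, Het 2, Hom 1 and Hom 2 (log2 difference 4.78, SE 0.36, adjusted p = 5.32e-05, limma). Stmn1, a microtubule-destabilising protein, was at 1542, 747, 280 and 694 CPM against 41.8, 39.9, 37.5 and 51.7 CPM. No brain's positive side overlapped the negative sides for either gene. Birc5 (3.32), Nusap1 (3.23), Ube2c (3.11), Top2a (3.09), Rrm2 (2.95), Ccnb2 (2.78), Tyms (2.77) and Ccna2 (2.73) rose by the next largest amounts. In contrast to Krt8-high cells, licensing genes rose here, such as Mcm7 (1.91), Gins2 (1.64), Mcm5 (1.59), Mcm3 (1.55), Pcna (1.49) and Ccne1 (1.71), though the difference between the classes was not tested. The 5 that did not pass were Mcm2 (0.96), Mcm4 (0.99), Cdc6 (1.21), Aurka (1.19) and Cdc20 (1.37). Thinned, 18 members passed, without Hom 2 13 did, 22 did without the variance trend, and 0 did with any gene above 0 kept.

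In monocyte/macrophage-like cells 36 members were tested and 34 rose, against 1.89% of all 7374 genes called higher, 0.203% lower and 2.09% in either direction. Here too members near 0 in negative cells passed the filter only through the positive cells, such as Ccna2 at means of 3.16 and 58.8 CPM. The number called is again a description. Pclaf was at 366, 159, 47.6 and 214 CPM in positive and 3.03, 2.65, 3.07 and 1.99 CPM in negative cells, a log2 difference of 3.74. Top2a, Ube2c and Birc5, an inhibitor of apoptosis in the chromosomal passenger complex, rose by 3.24, 3.07 and 2.98, Stmn1 by 3.55, Cenpf by 2.56, Nusap1 by 2.52, Cdk1 by 2.44 and Rrm2 by 2.43. Among licensing genes Mcm3 (1.73), Mcm7 (1.60) and Mcm5 (1.55) rose most. Pcna, the sliding clamp of DNA polymerase (0.65, adjusted p = 0.157), and the checkpoint kinase Bub1 (1.24, adjusted p = 0.0827) did not pass. Thinned, 13 members passed, and 0 did with any gene above 0 kept.

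**Figure D4:**
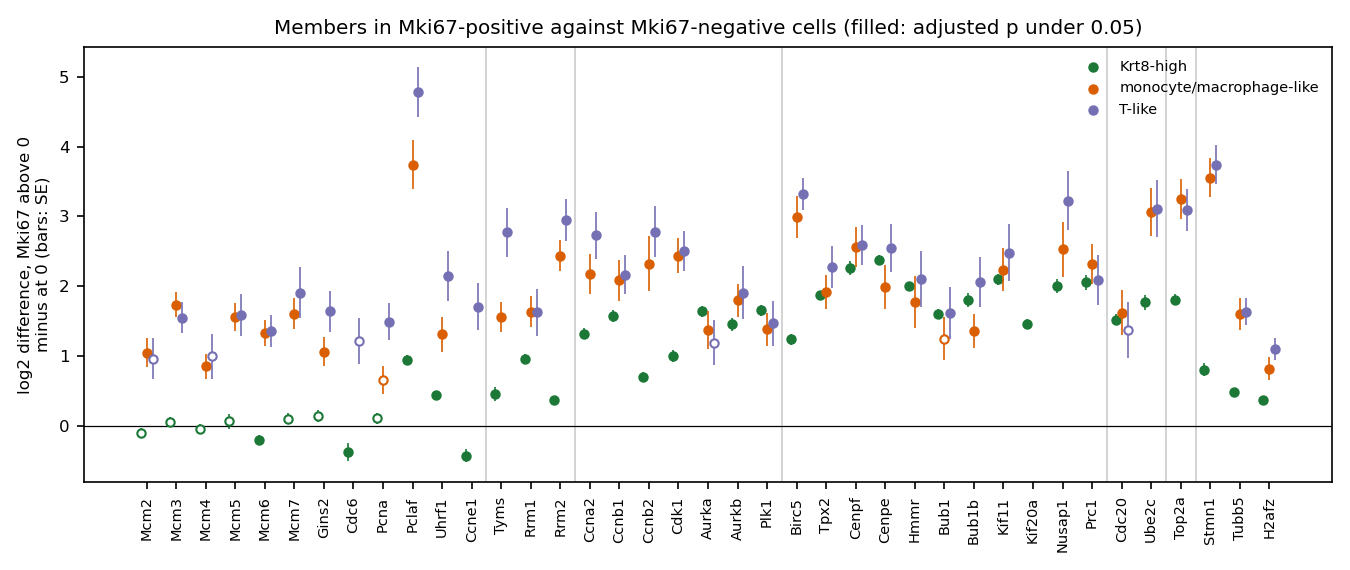
Log2 difference of each member, Mki67-positive minus Mki67-negative cells of the same brain (y axis, difference on log2(CPM + 10), with SE bars; x axis, members by role). Colours mark Krt8-high (green), monocyte/macrophage-like (orange) and T-like cells (purple), and symbols are filled where the adjusted p is under 0.05 (limma). In Krt8-high cells the helicase subunits sit near 0 while Cenpe reaches 2.37, and in T-like cells Pclaf reaches 4.78.

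The balance of the waves can be set side by side as the ratio of summed mitotic to summed G1/S and nucleotide members, without the members that have a floor. In Mki67-positive Krt8-high cells it was 2.33, 2.88, 3.00 and 2.57 in Het 1, Het 2, Hom 1 and Hom 2. In positive T-like cells it was 0.44, 1.08, 0.39 and 1.06, and in positive monocyte/macrophage-like cells 1.81, 0.80, 0.95 and 0.87. Every Krt8-high brain was above every brain of these other classes. In the brains with at least 5 positive cells, vascular-like cells had ratios of 2.78 (Het 1), 1.22 (Hom 1) and 3.24 (Hom 2) and microglia-like cells 0.78 (Het 1), 2.78 (Het 2) and 1.21 (Hom 1), so that some brains of these classes were above Krt8-high brains. Negative Krt8-high, T-like and monocyte/macrophage-like cells had pooled ratios of 0.97, 0.28 and 0.39. No positive Krt8-high cell of 1091 lacked all other counted members, whereas 17 of 124 T-like and 11 of 122 monocyte/macrophage-like positive cells did.

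Other genes of the pathway, from lists kept apart from the 40, moved with Mki67 as follows. Beside them stand the shares of all genes called higher and lower. These were 22.4% and 14% in Krt8-high, 4.29% and 1.28% in T-like and 1.89% and 0.203% in monocyte/macrophage-like cells. Of 51 other G2 and M phase genes, 50 of 50 tested rose in Krt8-high, 34 of 40 in T-like and 26 of 39 in monocyte/macrophage-like cells. Dlgap5, a spindle factor (1.80), was among those in Krt8-high cells. Of 38 other S phase genes, 22 rose and 2 fell of 38 tested in Krt8-high, 20 of 34 rose in T-like and 11 of 22 in monocyte/macrophage-like cells. Ung, a uracil glycosylase of DNA repair, fell by 1.37 in Krt8-high cells. Of the G1 cyclins and kinases, Ccnd2 (-0.54) and Ccnd3 (-0.42) fell and Cdk2 (0.28) and Ccnd1 (0.12) rose of 8 tested in Krt8-high cells, and limma called 0 of 8 in T-like and 0 of 6 in monocyte/macrophage-like cells. Of the E2F, RB and DREAM regulators, 8 rose and 1 fell of 16 in Krt8-high, 3 of 13 rose in T-like and limma called 0 of 12 in monocyte/macrophage-like cells. Foxm1, a transcription factor of the mitotic wave, rose by 1.41 in Krt8-high and by 1.65 in T-like cells, and E2f1, an activator of the S phase wave, fell by 0.56 in Krt8-high cells. Of the inhibitors of cyclin-dependent kinases, Cdkn2d (1.28), Cdkn2c (0.66) and Cdkn1b (0.53) rose in Krt8-high cells and Cdkn2c (1.38) in monocyte/macrophage-like cells, while 0 of 4 passed in T-like cells. Of 17 genes of the anaphase-promoting complex and its regulators, 11 of 17 rose in Krt8-high, 3 of 16 in T-like and 0 of 15 in monocyte/macrophage-like cells. Fbxo5, an inhibitor of that complex, rose by 1.08 in Krt8-high and by 2.52 in T-like cells. Among antiproliferative genes, both directions were called in Krt8-high cells, where Btg1 (-1.11) and Klf2 (-0.24) fell and Trp53 (0.20) and Txnip (0.38) rose. In T-like cells Btg1 fell by 0.67, and Btg2 (-0.90) and Klf2 (-0.99), genes of resting lymphocytes, fell too.

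Genes outside these lists that passed beside them show what else differed between the sides. Clustered histone genes, transcribed in S phase, were among the largest rises in all 3 classes: Hist1h1e (2.00) and Hist1h1b (1.93) in Krt8-high, Hist1h2ap (3.29) and Hist1h1b (3.18) in monocyte/macrophage-like and Hist1h1b (4.28) and Hist1h2ap (3.86) in T-like cells. Aspm, of the spindle poles, rose by 2.20 in Krt8-high cells, where Tmsb4x (-1.96) and Srgn (-1.39), which immune cells express, and the choroid plexus gene Ttr (-1.59) fell. In T-like cells Pxdc1 (-1.53), Pde3b (-1.44), Krt8 (-1.31), Jun (-1.27) and Ttr (-1.10) fell, and in monocyte/macrophage-like cells Klk1 (-2.24) and Ccr9 (-1.77). In T-like cells Foxp3 rose by 1.93 (adjusted p = 0.0021, limma), and Lef1 fell by 1.16. The summed B cell markers in T-like cells ranged from 87.1 to 454 CPM in positive and from 51.0 to 101 CPM in negative cells. Those of 3 other types were lower in positive T-like cells without overlap, namely Krt8-high markers (30.2 to 62.2 against 89.2 to 131 CPM), choroid plexus markers (50.4 to 119 against 170 to 221 CPM) and microglia markers (60.5 to 181 against 213 to 267 CPM). Krt8 has the correction's floor in shallow cells. It was above 0 in 16.9% of positive and 37.4% of negative T-like cells, and the negative cells were shallower (medians 9502 and 5282 raw UMIs). In monocyte/macrophage-like cells the microglial genes Fcrls (1.35), Olfml3 (1.06) and Tmem119 (1.06) rose, and the summed microglia markers ranged from 784 to 3129 CPM against 642 to 1292 CPM. In Krt8-high cells the summed monocyte/macrophage markers ranged from 11.3 to 47.5 CPM in positive and 37.3 to 174 CPM in negative cells, and the summed choroid plexus markers from 103 to 173 against 101 to 589 CPM. The parts of other cell types and of the correction's floor in these results were not tested.

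The last comparison is between genotypes, Hom minus Het, in the same class and state. It asks whether loss of the second Cx3cr1 allele goes with a change in the 40 genes. For the share of Mki67-positive cells, an exact two-sided permutation test of 2 against 2 brains cannot go below p = 0.333, and adjusted values over the 8 classes compared were 0.533 or 0.667. The share in vascular-like cells was 4.76 ± 2.61% (SD, n = 2) in Het and 18.6 ± 1.45% in Hom brains, a difference of 13.8 percentage points. Among the 8 this was the largest difference, and the groups did not overlap. Hom vascular-like cells were also deeper, with medians of 7767 and 7749 raw UMIs in Het against 10982 and 12320 in Hom brains. Among cells of 5000 to 15000 raw UMIs the difference was 1.10 points, with overlap, and thinned it was 3.24. Among cells of 5000 or more raw UMIs it was 16.7 points, without overlap.

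Microglia-like cells differed by 8.0 points with metastases and by 1.14 points without. With metastases the difference was 0.162 within 5000 to 15000 raw UMIs, with overlap, and 6.56 at 5000 or more, without overlap. T-like cells differed by 4.41 points, with no overlap. Their difference was 1.13 within 5000 to 15000 raw UMIs and 0.207 at 5000 or more, both with overlap. Krt8-high cells differed by -6.22 points, with overlap. Monocyte/macrophage-like cells differed by -1.17 and NK-like cells by -2.17 points, and both signs turned within 5000 to 15000 raw UMIs, to 0.80 and 3.6. At 5000 or more raw UMIs these 2 classes differed by -1.41 and -3.73. Naive T/NK-like cells differed by 3.70 points, with overlap, and by -0.54 without Het 2 and -1.36 without Hom 2.

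Levels of the 40 genes were compared by limma on the sums per brain, where a level cannot tell more cycling cells from more RNA per cycling cell. Members were called in 1 of the 8 classes, naive T/NK-like cells. There 31 of 40 members passed the filter on low values, and 8 were higher in Hom brains against 0.201% of all 7453 genes, with 0.0134% of genes lower and 0.215% in either direction. A member at 0 in the Het brains passed that filter only through the Hom brains, so the number called is given as a description. The 31 had a median log2 difference of 1.25, against 0.08 over all genes, 30 of the 31 differences were above 0, and 26 members had an unadjusted p under 0.05, as did 5.47% of all genes.

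Of the 8, Top2a was at 24.1 and 6.89 CPM in Het and 150 and 167 CPM in Hom brains (log2 difference 2.81, SE 0.33, adjusted p = 0.000486, limma). Mki67 was at 30.1 and 2.30 CPM against 104 and 110 CPM (2.40, SE 0.42, adjusted p = 0.0196). Hmmr, a spindle assembly factor, was at 0 and 0 CPM against 36.8 and 44.5 CPM. The groups did not overlap for these genes, and the Het 2 brain was lowest for Top2a and Mki67.

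Stmn1 was at 76.3 and 20.7 CPM in Het against 239 and 308 CPM in Hom brains, and Ube2c at 28.1 and 9.18 against 95.1 and 160 CPM. Nusap1, which bundles spindle microtubules, Cenpf and Birc5 had differences of 2.31, 2.27 and 1.86. None of the 8 G1/S or 3 nucleotide genes tested was called. Their medians were 0.55 and 0.87, and they ran from Mcm3 at -0.17 and Tyms at 0.06 to Rrm2 at 1.46 and Pclaf at 1.73. Of lists kept apart from the 40, 2 of 31 other G2 and M phase genes, Cdca8 (2.12) and Hmgb2 (0.82), and 0 of 24 other S phase genes passed.

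These calls rest on few cells and brains. Mki67 UMIs numbered 15 in 7 cells, 1 in 1 cell, 34 in 2 cells and 62 in 11 cells of Het 1, Het 2, Hom 1 and Hom 2, so 2 cells carried all of the Mki67 in Hom 1. Cells with at least 5 of the 33 members were 3 of 69, 2 of 60, 5 of 44 and 13 of 75. Without the variance trend 0 members were called. The Mki67-positive share differed by 8.76 percentage points without Hom 1 and by -1.36 without Hom 2. The B cell gene Igkc (3.86) was called in the same comparison, and summed B cell markers were 96.4 and 138 CPM in Het against 212 and 376 CPM in Hom brains. Their part in the result was not tested.

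**Figure D5:**
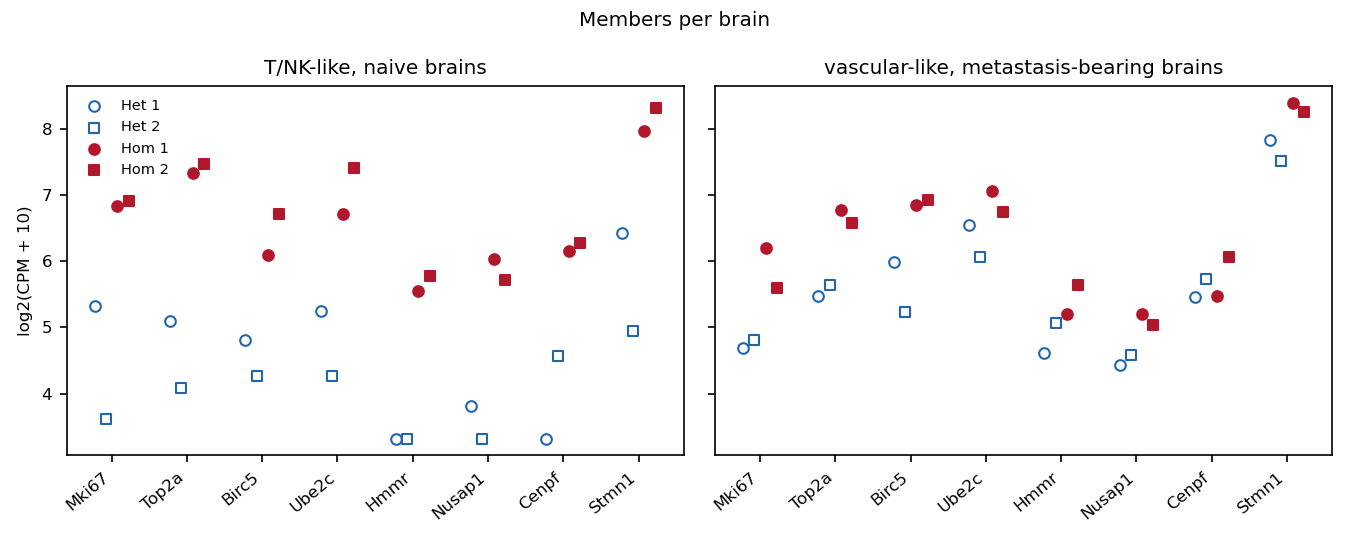
Level of Mki67, Top2a, Birc5, Ube2c, Hmmr, Nusap1, Cenpf and Stmn1 in each brain, as log2(CPM + 10) (y axis), in naive T/NK-like cells and in vascular-like cells of metastasis-bearing brains, with Het open and Hom filled. In naive T/NK-like cells Top2a lies at 24.1 and 6.89 CPM in Het and 150 and 167 CPM in Hom brains, and in vascular-like cells at 34.3 and 39.9 against 99 and 85.5 CPM.

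In vascular-like cells, 36 members were tested and 0 were called, as were 0 of all 8896 genes (limma; 0%), while 23 of the 36 members and 918 of all genes (10.3%) had an unadjusted p under 0.05. All 36 differences were above 0, with a median of 0.64 against 0.01 over all genes. Top2a was at 34.3 and 39.9 CPM in Het against 99 and 85.5 CPM in Hom brains (log2 difference 1.12, SE 0.17, adjusted p = 0.211, limma). Pclaf was at 14.2 and 4.89 against 102 and 42.8 CPM (2.02, adjusted p = 0.236), and Mki67 at 15.9 and 17.9 against 63.8 and 38.5 CPM (1.15, adjusted p = 0.266). The groups did not overlap for these 3 genes, and Pclaf, low in the Het brains, passed the filter on low values through the Hom brains. H2afz (0.58), Birc5 (1.27) and Uhrf1 (1.00) had the next smallest p and did not pass. Within 5000 to 15000 raw UMIs the difference of Birc5 went from 1.27 to -0.06. In Het 2, 1 cell held 55.8% of the UMIs of the 33 members counted above. Summed Krt8-high markers were 100.03 and 76.6 CPM in Het and 106 and 178 CPM in Hom brains, and their part was not tested.

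In microglia-like cells with metastases, 28 members were tested and 0 called by limma, against 0.0678% of all 7374 genes called higher, 0.0136% lower and 0.0814% in either direction, with 8 members at an unadjusted p under 0.05. The median was 0.50, and 26 of 28 differences were above 0. Over all genes the median was 0.01, 51.6% of differences were above 0, and 8.61% of genes had an unadjusted p under 0.05. Mcm3, a helicase subunit, was at 38.1 and 40.5 CPM in Het against 70.4 and 63.1 CPM in Hom brains (0.64, SE 0.18, adjusted p = 0.379), without overlap. Mki67 was at 9.68 and 39.3 against 90.1 and 24.3 CPM (0.91, SE 0.55, adjusted p = 0.668), with overlap. Tpx2 (0.73), Mcm5 (0.66), Tubb5 (0.37) and Ccnb2 (0.91) did not pass either.

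In naive microglia-like cells 11 members passed the filter and 0 were called, against 0.403% of all 7693 genes higher, 0.169% lower and 0.572% in either direction. The median was 0.05, and 0 members had an unadjusted p under 0.05, against 8.51% of all genes. Rrm1 was nearest at 0.32 (SE 0.18, adjusted p = 0.696, limma). The test of the difference between states in microglia-like cells called 0 of 11 members, against 0.0142% of all 7065 genes. In it 3 members and 8.44% of all genes had an unadjusted p under 0.05, with Mcm3 nearest at 0.60 (SE 0.23, adjusted p = 0.572, limma).

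In the other 4 classes the medians were below 0 and no member was called. In Krt8-high cells 37 of 40 differences were below 0, with a median of -0.17, and 0.025% of all 8011 genes were called. Over all genes 42.7% of differences were above 0, with a median of -0.03. An unadjusted p under 0.05 was found for 3 of 40 members and for 6.07% of all genes. Ccna2, cyclin A2, was at 214 and 253 CPM in Het against 188 and 172 CPM in Hom brains (-0.35, SE 0.12, adjusted p = 0.787), and Mki67 at 56.2 and 80.9 against 54.8 and 58.0 CPM (-0.22). Ccna2 did not overlap and Mki67 did. Pclaf (-0.35), Birc5 (-0.30), Rrm2 (-0.28) and H2afz (-0.17) did not pass either. Without Het 1 the difference of Mki67 was -0.45, and without Het 2 it was 0.0041.

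In monocyte/macrophage-like cells all 14 members tested were below 0, with a median of -0.26, and 0.0143% of all 6980 genes were called. Over all genes 53.1% of differences were above 0. An unadjusted p under 0.05 was found for 2 members and for 7.66% of all genes. Mki67 was at 25.3 and 14.8 CPM in Het against 11.6 and 10.9 CPM in Hom brains (-0.48, SE 0.18, adjusted p = 0.569), without overlap. Pclaf (-0.68), Birc5 (-0.65), Top2a (-0.38) and Rrm1 (-0.24) did not pass either. Without Het 2 the share of Mki67-positive cells differed by -0.83 percentage points in this class. In T-like cells 27 members were tested, with a median of -0.13, and 0% of 6524 genes were called although 297 genes, 0 of them members, had an unadjusted p under 0.05. Mki67 was at 52.7 and 29.5 against 29.8 and 75.4 CPM there, with overlap, and the smallest p was that of Birc5 (-0.58, SE 0.28, adjusted p = 0.972), followed by Mcm5 (0.36), Stmn1 (-0.41), Rrm2 (-0.31) and Ccnb2 (0.30). There, the difference of Stmn1 was -0.70 without Het 2 and 0.12 without Hom 1.

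In NK-like cells 20 members were tested, and 0.0476% of 6299 genes were called. The median was -0.28, against -0.03 over all genes, and 3 members and 4.03% of all genes had an unadjusted p under 0.05. Pclaf was at 70.1 and 21.5 against 13.6 and 4.56 CPM (-1.44, SE 0.44, adjusted p = 0.915), without overlap, and Mki67 at 53.2 and 17.3 against 15.9 and 3.04 CPM (-1.18), also without overlap. Rrm2 (-0.95), Birc5 (-0.75) and Stmn1 (-0.60) did not pass. The share of Mki67-positive NK-like cells differed by -4.48 percentage points without Het 2 and by 0.14 without Het 1.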

How the data were processed

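RNA, surface antibody and hashtag libraries of 1 pool were sequenced. Per the submitters' processing notes, Cell Ranger 3.1 and Seurat 3.1.1 were used, with build mm10. The authors deposited the RNA values as natural logs, ln(1 + UMI) after a depth correction, made separately for the metastasis-bearing and naive tables, since undoing the log gave whole numbers, at a relative tolerance of 1e-06, for 100% of the 29262479 and 9282424 values above 0. The authors' deposited clusters and hashtag calls gave class and brain, and the raw UMI counts per cell came from the authors' deposited cell table. The members and lists were chosen with earlier results of these data known. Barcodes in both tables were dropped, and doublets were not called again.

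Corrected UMIs were summed per brain and class (at least 20 cells in a brain), scaled to CPM, and genes with a mean CPM above 10 were tested on log2(CPM + 10) with limma 3.58.1 (R 4.3.3; eBayes with trend, Benjamini-Hochberg over all genes, 0.05). The pseudocount makes differences of low genes smaller. Genotype fits used the 4 brains of a class, and Mki67 fits had the brain as a block. Python 3.11.15, numpy 2.4.6, pandas 2.3.3 and scipy 1.17.1 did the rest. Mki67 and the called members were named, or the 5 with the smallest p where under 5 were called. Of long lists of calls, some of those with large differences were named. The fits were tested on simulated data, and the alternatives tried were pseudocount, filter, scaling, variance prior, depth, doubled barcodes, Krt8-positive cells and each brain left out.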

Additional observations from a re-analysis of the deposited data

Results flagged for a closer look

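A cluster of metastasis-bearing brains with few UMIs per cell, which entered no comparison, had Mki67 above 0 in 11.7% of its 640 cells (exact 95% binomial interval 9.33 to 14.5%), at a median of 2147 raw UMIs. It drew notice because this share was above that of the few-UMI cluster of naive brains, where 1.44% of 554 cells were positive, at a median of 1405. By depth, 18 of 453 cells under 5000 raw UMIs (3.97%), 31 of 145 from 5000 to 15000 (21.4%) and 26 of 42 above that (61.9%) were positive, so that the deeper cells held most of the 75 positive ones. In the naive cluster, 5 of 519 cells under 5000 raw UMIs were positive (0.963%). By brain the positive cells numbered 8 of 132, 21 of 184, 34 of 199 and 12 of 125 in Het 1, Het 2, Hom 1 and Hom 2. Cells with at least 5 of the 33 members other than Mki67 that have no floor made up 16.9% of this cluster, at a median of 11843 raw UMIs.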

How the results depend on the processing

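Members called higher in naive T/NK-like cells of Hom brains numbered 0 without the variance trend, 3 at log2(CPM + 1), 5 with median-ratio size factors, 5 within 5000 to 15000 raw UMIs and 12 with any gene above 0 kept. With a brain left out, genotype calls elsewhere ran from 0 to 22 lower in Krt8-high, 0 to 6 lower in monocyte/macrophage-like, 0 to 2 lower in T-like, 0 to 10 lower in NK-like, 0 to 3 higher in microglia-like and 0 to 3 higher in vascular-like cells, and from 0 to 1 for the difference between states. Mki67-positive against negative Krt8-high cells gave 29 to 33 members higher and 1 to 2 lower with a brain left out, and 0 lower when thinned, 1 without the trend and 0 with any gene kept. Monocyte/macrophage-like cells gave 13 thinned, 0 with any gene kept and 24 to 32 with a brain left out. T-like cells gave 18 thinned, 20 within 5000 to 15000 raw UMIs, 0 with any gene kept and 13 to 36 with a brain left out. Differences in the Mki67-positive share (Hom minus Het, percentage points) reversed in monocyte/macrophage-like cells to 0.80 within 5000 to 15000 raw UMIs, and in NK-like cells to 3.6 within that range and 0.98 thinned. With a brain left out they ran from -4.48 to 0.14 in NK-like and from -1.36 to 8.76 in naive T/NK-like cells. Single log2 differences that reversed were Mki67 in T-like cells, to -0.082 among cells of 5000 or more raw UMIs and -0.035 with Krt8-positive cells left out, and Birc5 in vascular-like cells, to -0.061 within 5000 to 15000 raw UMIs. With a brain left out, Mki67 ran from -0.45 to 0.0041 in Krt8-high and from -0.32 to 0.78 in T-like cells, where Stmn1 ran from -0.94 to 0.12, Rrm2 from -0.66 to 0.050 and Ccnb2 from -0.0012 to 0.60, and Ube2c in naive microglia-like cells ran from -0.46 to 0.17. The cause was not tested. The range of cells of 5000 or more raw UMIs and the minimum of 5 positive cells were chosen after seeing the data. Shallow cells, 2 brains a group and the correction's floor limit every level given. No paired analysis was possible because brains are hashtags whose numbers pair nothing between genotypes.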
